A study of Mus musculus with 12 samples.

Results

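The genes described here are the enzymes that build cholesterol and fatty acids, with the proteins that switch them on. All 33 were sought by symbol among the 23420 gene rows of the table and all 33 were found, 1 of them (Msmo1) under its older symbol Sc4mol. They comprise 18 sterol pathway enzymes (Acat2, Hmgcs1, Mvk, Pmvk, Mvd, Idi1, Fdps, Fdft1, Sqle, Lss, Cyp51, Tm7sf2, Msmo1, Nsdhl, Hsd17b7, Ebp, Sc5d and Dhcr7), 6 regulators and carriers (Insig1, Insig2, Srebf1, Srebf2, Scap and Stard4) and 9 fatty acid enzymes (Acly, Acaca, Fasn, Scd1, Scd2, Elovl5, Elovl6, Fads1 and Fads2). All 33 passed the filter on low counts. The libraries came from macrophages sorted out of the nucleated marrow cells of C57BL/6 mice. Tibias had received mesenchymal stromal cells (MSCs), the fibroblast-like support cells of the marrow, and femurs had not. There were 2 mice, numbered 7 and 19, and each gave 3 tibia libraries, labelled as MSC-educated macrophages, and 3 femur libraries. Each treated bone was a tibia and each untreated bone a femur, so bone and treatment cannot be told apart. The labels give neither the source, dose and timing of the MSCs nor whether the mice carried leukaemia, which the series title names.

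Cells make cholesterol from acetyl-CoA through mevalonate, isoprenoids, squalene and lanosterol, and long-chain fatty acids from the same precursor through malonyl-CoA. Srebf1 and Srebf2 encode the membrane-bound transcription factors SREBP that drive these genes. SCAP escorts them to the Golgi for cleavage when sterols are scarce, and the INSIG proteins hold SCAP back when sterols are plentiful. In macrophages the pathway is weighed against uptake and efflux of cholesterol, and dividing cells draw on it for new membrane.

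Total counts ran from 9773455 to 14869150 per library, and 13524 to 13902 genes had a count. Macrophage markers were present in each library: the mean of Csf1r, the receptor for the macrophage growth factor, ran from 785 to 1107 CPM (each count scaled to a library of one standard size) over the 4 sets of mouse and bone. Markers of neutrophils were present too. The summed level of 7 of them (Ltf, Ngp, Camp, S100a8, S100a9, Lcn2 and Retnlg) was 16765 to 18446 CPM in femur and 17257 to 18661 CPM in tibia of mouse 7, and 25141 to 28828 and 28328 to 30706 CPM in mouse 19. The labels do not say whether the 3 libraries of 1 bone were separate sorts. All p-values therefore measure the spread between libraries, which may be technical, with 2 animals behind them.

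Promoters of these genes were searched for the sequences through which SREBP and its partners are known to act. RefSeq promoters (GRCm38.p6) were held for 26 of the 33 genes, and not for Sqle, Fdps, Fdft1, Stard4, Scd1, Scd2 and Fads1. These 26 genes have 34 promoters in the table. In the 250 bases before the start, on either strand, the sterol regulatory element core CACNCCAC lay in 3 of the 34 (Acat2, Hmgcs1 and Insig1), against 5.29% of all 32851 promoters. The NF-Y box CCAAT lay in 21 of the 34, from 20 genes, against 33.8% of all promoters. The E-box CACGTG lay in 6 of the 34 (Dhcr7, Elovl5, Hsd17b7, Insig1, Sc5d and Scap), against 6.02%. The 5 stretches printed here are each free of annotated exons. Insig1, Sc5d, Cyp51 and Elovl5 passed in the tibia of mouse 7, and Hmgcs1 was added though it passed in no comparison of tibia with femur. Srebf2 also passed in mouse 7, and its stretch, with an NF-Y box and no core, is not printed. Idi1 passed there too and held an NF-Y box and no core. It is not printed, since its 250 bases held no long enough stretch free of annotated exons. Capitals mark matches to these 3 motifs on either strand (ATTGG is CCAAT on the other strand). Hmgcs1 is chr13:119690151-119690350 (plus strand), Insig1 is chr5:28071163-28071362 (plus strand), Sc5d is chr9:42264301-42264500 (minus strand), Cyp51 is chr5:4104747-4104946 (minus strand) and Elovl5 is chr9:77917164-77917363 (plus strand).
Hmgcs1: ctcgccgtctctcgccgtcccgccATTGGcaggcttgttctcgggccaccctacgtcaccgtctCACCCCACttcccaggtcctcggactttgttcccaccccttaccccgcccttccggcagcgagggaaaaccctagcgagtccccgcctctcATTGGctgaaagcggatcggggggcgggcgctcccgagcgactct
Insig1: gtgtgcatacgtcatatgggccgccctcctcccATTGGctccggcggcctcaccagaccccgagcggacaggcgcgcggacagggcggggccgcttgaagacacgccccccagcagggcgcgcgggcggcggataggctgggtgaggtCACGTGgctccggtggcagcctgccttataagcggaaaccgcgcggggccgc
Sc5d: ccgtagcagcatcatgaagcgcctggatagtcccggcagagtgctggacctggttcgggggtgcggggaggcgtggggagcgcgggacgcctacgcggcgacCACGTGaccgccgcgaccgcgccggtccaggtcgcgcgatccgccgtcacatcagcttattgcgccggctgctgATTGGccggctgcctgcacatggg
Cyp51: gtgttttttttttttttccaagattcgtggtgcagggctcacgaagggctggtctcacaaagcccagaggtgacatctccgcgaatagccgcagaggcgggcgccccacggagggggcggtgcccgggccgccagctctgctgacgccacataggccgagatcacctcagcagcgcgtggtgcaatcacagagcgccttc
Elovl5: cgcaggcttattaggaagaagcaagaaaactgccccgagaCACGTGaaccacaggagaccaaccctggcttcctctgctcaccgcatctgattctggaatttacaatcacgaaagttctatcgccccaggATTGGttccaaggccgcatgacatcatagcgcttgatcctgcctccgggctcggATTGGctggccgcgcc
Hmgcs1 held the core once and the NF-Y box at 2 places. Sc5d and Insig1 each held 1 NF-Y box and 1 E-box, and the core match of Insig1 fell outside the stretch printed. Cyp51 held none of the 3 motifs in its stretch, and its NF-Y box lay outside it. Elovl5, which was lower in the tibia of mouse 7, held 2 NF-Y boxes and 1 E-box. These are matches of letters only.

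Levels were compared between genes as CPM per kilobase of exon, here the means of 3 femur libraries of mouse 7. Acly, which makes cytosolic acetyl-CoA from citrate, stood highest at 56.1 CPM per kb, followed by Elovl5, an elongase of polyunsaturated fatty acids, at 40.1. Among the sterol enzymes Ebp, the sterol isomerase, at 26.8 and Mvd, the mevalonate pyrophosphate decarboxylase, at 24.8 stood far above the rest, which ran from 0.277 for Lss to 9.40 for Hmgcs1. Srebf1 at 19.2 and Srebf2 at 20.2 were close to each other. The stearoyl-CoA desaturases were unequal, with Scd2 at 15.8 and Scd1 at 1.05 CPM per kb. The delta-6 desaturase Fads2 was the lowest of the 33 at 0.150, and its level in the 3 femur libraries of mouse 7 lay at or near the limit that a count of 0 allows (0.404 to 0.617 CPM, counting error only).

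Over both mice 4 of the 33 genes were higher in the MSC-treated tibia and 0 were lower at a Benjamini-Hochberg adjusted p under 0.05 (edgeR's quasi-likelihood test with the mouse as a term). They were Idi1, the isopentenyl diphosphate isomerase, Fdps, which makes farnesyl diphosphate, the desaturase Scd2 and Fads1, the delta-5 desaturase. Of all 11806 genes tested, 3.51% were higher and 3.69% lower. At an unadjusted p under 0.05, 11 of the 33 were higher and 1 was lower, and DESeq2 called 5 higher and 0 lower. The median change of the 33 was 0.08 on the log2 scale, against -0.0021 for all genes, and 24 of 33 lay above 0, against 49.2% of all genes. By role, 2 of 18 sterol enzymes, 0 of 6 regulators and carriers and 2 of 9 fatty acid enzymes were higher. In bulk RNA, fewer cells of a type and less RNA per cell cannot be told apart.

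Fdps (chr3:89093588-89101967) stood at 23.3, 21.3 and 23.2 CPM in femur libraries 1 to 3 of mouse 7 and at 37.1, 34.3 and 34.5 CPM in its tibia libraries. In mouse 19 it stood at 59.3, 58.6 and 59.7 CPM in femur and 67.4, 64.4 and 59.8 CPM in tibia. The tibia libraries lay above the femur libraries in each mouse with no overlap, by a wide gap in mouse 7 and a narrow one in mouse 19. Over both mice the change was 0.35 ± 0.07 on the log2 scale (± SE; 1.27-fold, edgeR adjusted p = 0.0041). Farnesyl diphosphate is the branch point between sterols, dolichol, ubiquinone and protein prenylation.

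Scd2 (chr19:44293676-44306864), which puts the first double bond into stearate and palmitate, stood at 84.6, 85.5 and 89.7 CPM in femur and 118, 113 and 109.7 CPM in tibia of mouse 7. In mouse 19 its values were 185, 182 and 189 CPM in femur and 196, 196 and 199 CPM in tibia. Again all 6 tibia libraries stood above the femur libraries of their own mouse. The change over both mice was 0.23 ± 0.05 (log2, 1.17-fold, edgeR adjusted p = 0.0025). Scd1, its neighbour in the gene family, went the other way with -0.38 ± 0.20 (edgeR adjusted p = 0.28), on 1.35 to 5.77 CPM, and did not pass the threshold.

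Fads1 (chr19:10182877-10196874) stood at 12.9, 13.5 and 12.7 CPM in femur and 16.1, 19.4 and 18.1 CPM in tibia of mouse 7, and at 19.2, 20.3 and 21.3 CPM in femur and 23.2, 24.98 and 25.3 CPM in tibia of mouse 19. It makes the last desaturation step to arachidonate, the precursor of prostaglandins and leukotrienes. Its 6 tibia values too lay above all femur values of the same mouse, with a change of 0.36 ± 0.07 over both mice (log2, 1.28-fold, edgeR adjusted p = 0.0032).

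Idi1 (chr13:8885606-8892396) stood at 5.93, 5.19 and 5.62 CPM in femur and 9.57, 7.29 and 9.56 CPM in tibia of mouse 7. In mouse 19 the femur values were 10.2, 8.53 and 8.57 CPM and the tibia values 8.70, 12.8 and 12.7 CPM, so that the bones overlapped there through tibia library 1. The change over both mice was 0.48 ± 0.12 (log2, 1.39-fold, edgeR adjusted p = 0.019), the largest of the 4. It no longer passed without tibia library 3 of mouse 7 (log2 change 0.44, edgeR adjusted p = 0.054). Mvk and Pmvk, the paired kinases of mevalonate, stood higher in all 6 tibia libraries than the femur mean of their mouse, with changes of 0.36 ± 0.12 and 0.35 ± 0.11 that missed the threshold (edgeR adjusted p = 0.068 and 0.060). Both passed edgeR's test with no filter (adjusted p = 0.035 and 0.016), and Pmvk passed by DESeq2 (0.043). Without tibia 1 of mouse 19 Mvk passed (edgeR, 0.024). Pmvk passed without femur 2 of mouse 7, or femur 2 or tibia 3 of mouse 19 (edgeR, 0.031 to 0.047).

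With counts summed per mouse and bone, so that the animal was the unit, 0 of the 33 genes passed edgeR's test, where 0.407% of all genes were higher and 0.144% lower. At an unadjusted p under 0.05, 7 of the 33 passed, all higher. For the 4 genes named above the edgeR adjusted p was 0.23 (Idi1), 0.22 (Fdps), 0.24 (Scd2) and 0.20 (Fads1), with log2 changes of 0.48, 0.36, 0.24 and 0.35. The calls above thus rest on the spread between libraries.

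**Figure D1:**
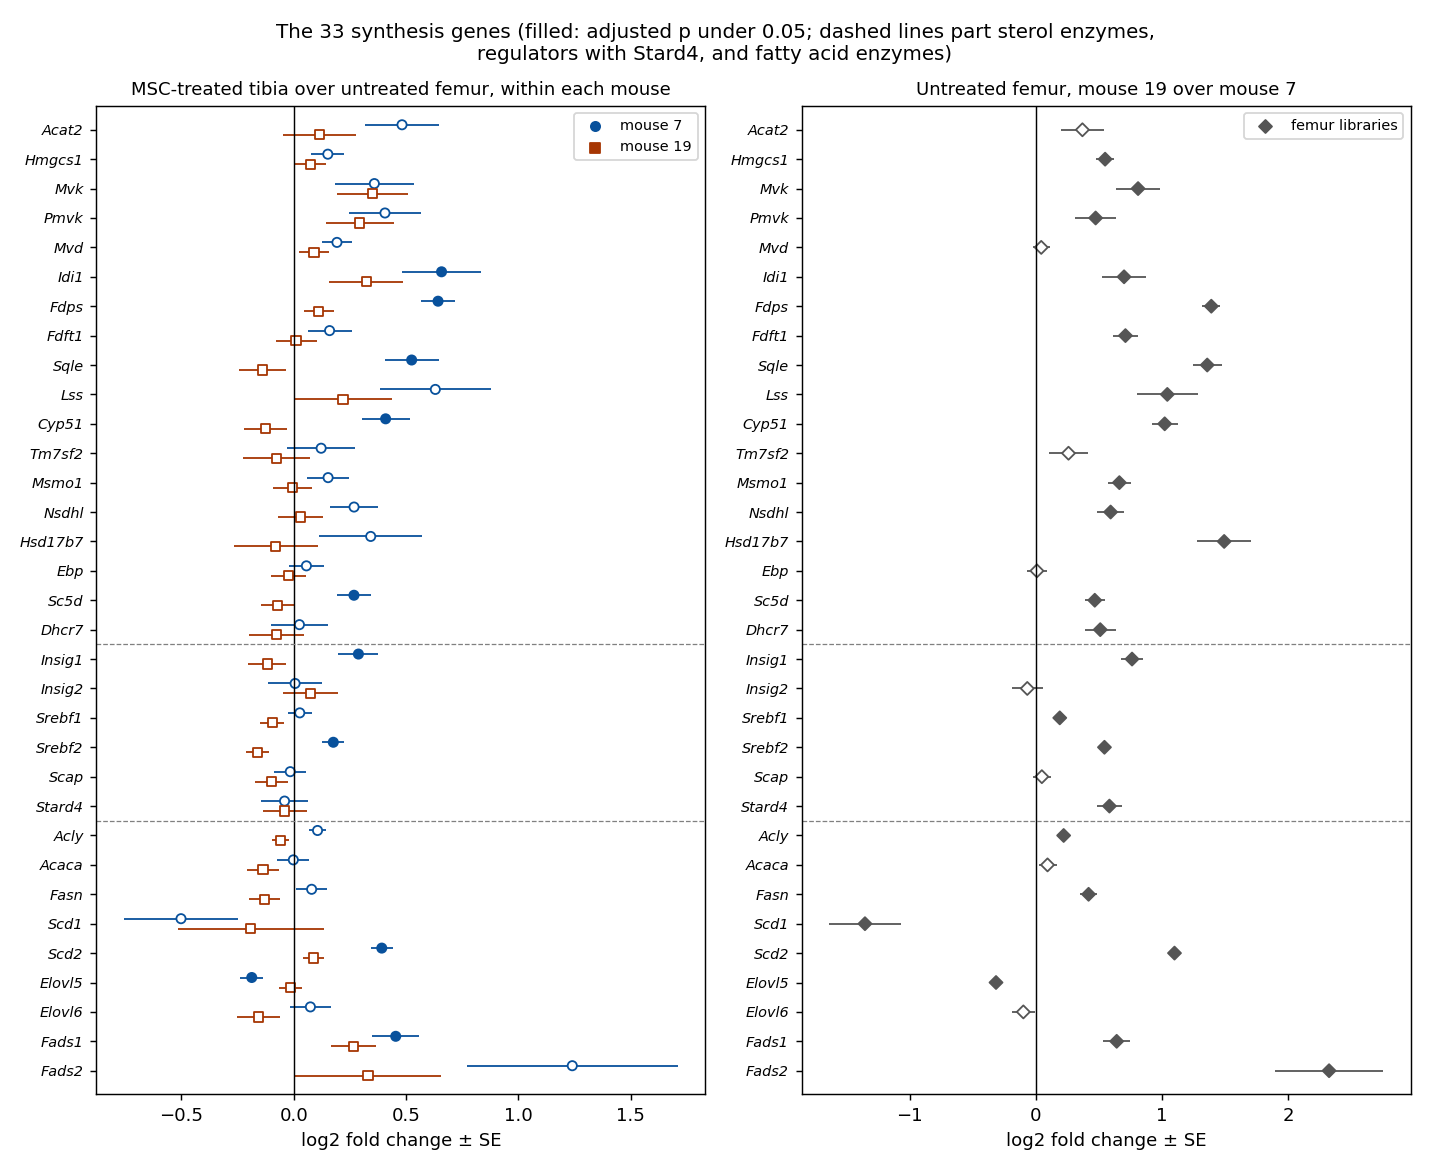
Log2 fold changes of the 33 genes with their SE (x axis), one gene per line (y axis), for the tibia against the femur within each mouse (left) and for the femur of mouse 19 against that of mouse 7 (right). Filled symbols passed an adjusted p under 0.05; the sterol enzymes of mouse 7 all lie above 0, and 23 genes are higher in the femur of mouse 19.

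Within mouse 7 the bones differed in 10 of the 33 genes. There 9 genes were higher in tibia and 1 lower (edgeR, adjusted p under 0.05), against 4.37% higher and 5.36% lower among all genes. The 9 were 5 sterol enzymes (Idi1, Fdps, Sqle, Cyp51 and Sc5d), 2 regulators (Insig1 and Srebf2) and 2 fatty acid desaturases (Scd2 and Fads1); the elongase Elovl5 was lower. All 18 sterol enzymes had a log2 change above 0, with a median of 0.31, and 28 of the 33 genes did, against 48.1% of all genes. The median of the 33 was 0.18, against -0.0072 for all genes. In 16 of the 33 genes the 3 tibia libraries lay wholly above the 3 femur libraries, and in 1 wholly below, against 12.2% and 14.4% of all genes.

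The summed level of the 18 sterol enzymes was 336 to 345 CPM in the femur libraries of mouse 7 and 402 to 412 CPM in its tibia libraries. The 9 fatty acid enzymes summed to 664 to 683 CPM in femur and 710.0 to 717 CPM in tibia. Both sums were higher in tibia with no overlap, the sterol enzymes by more. Within the sterol pathway the changes in mouse 7 were 0.66 ± 0.18 for Idi1 (log2, edgeR adjusted p = 0.014) and 0.64 ± 0.08 for Fdps (edgeR adjusted p = 9.2e-07). The desaturases Scd2 and Fads1 rose by 0.39 ± 0.05 and 0.45 ± 0.11 (edgeR adjusted p = 2.2e-06 and 0.0050).

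Sqle (chr15:59315092-59331193), the squalene epoxidase and a rate-limiting step of the sterol branch, stood at 8.23, 11.2 and 9.10 CPM in femur and 14.3, 13.3 and 13.6 CPM in tibia of mouse 7, with no overlap. Its change there was 0.52 ± 0.12 (log2, 1.44-fold, edgeR adjusted p = 0.0045). In mouse 19 the values were 23.2, 25.5 and 24.5 CPM in femur and 22.3, 21.4 and 22.9 CPM in tibia, all 3 tibia values below the femur values, with a change of -0.14 ± 0.10 that did not pass (edgeR adjusted p = 0.55). The 2 mice thus stood on opposite sides of 0 for this enzyme.

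Cyp51 (chr5:4080674-4104697), the lanosterol demethylase, stood at 16.4, 17.96 and 20.6 CPM in femur and 26.9, 23.8 and 22.5 CPM in tibia of mouse 7. In mouse 19 it stood at 39.1, 39.8 and 32.9 CPM in femur and 30.7, 38.1 and 33.8 CPM in tibia. The bones were apart in mouse 7 and overlapped in mouse 19. The changes were 0.41 ± 0.11 in mouse 7 (log2, edgeR adjusted p = 0.012) and -0.13 ± 0.10 in mouse 19 (edgeR adjusted p = 0.57).

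Sc5d (chr9:42251592-42264300), a late desaturase of the sterol ring, stood at 26.3, 25.6 and 27.3 CPM in femur and 31.2, 34.03 and 30.2 CPM in tibia of mouse 7, and at 37.1, 36.9 and 35.5 CPM in femur and 34.1, 34.9 and 35.2 CPM in tibia of mouse 19. Its tibia values lay above the femur values in mouse 7 and below them in mouse 19. The log2 change of 0.27 ± 0.08 in mouse 7 passed (edgeR adjusted p = 0.023), and that of -0.07 ± 0.08 in mouse 19 did not (edgeR adjusted p = 0.69).

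Elovl5 (chr9:77917365-77984519) was the exception in mouse 7, at 142, 145 and 137 CPM in femur and 129, 124 and 119.8 CPM in tibia, a fall by 0.19 ± 0.05 on the log2 scale (edgeR adjusted p = 0.016). In mouse 19 it stood at 110.0, 118 and 112 CPM in femur and 117, 109 and 111 CPM in tibia, which overlapped. It lengthens polyunsaturated chains, downstream of the desaturase Fads2 that stands in the same branch. Fads2 itself rested on few counts, 0.462, 0.281 and 0.740 CPM in femur and 1.19, 1.46 and 0.876 CPM in tibia of mouse 7 and 1.95, 2.79 and 2.67 CPM in femur and 2.09, 3.13 and 4.28 CPM in tibia of mouse 19. Its tibia change of 1.24 ± 0.47 in mouse 7 did not pass (edgeR adjusted p = 0.098).

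With 1 library fewer, several calls of mouse 7 no longer passed while their folds stayed close. Those of Fdps, Sqle, Scd2 and Fads1 passed whichever of the 12 libraries was left out. Where the others were lost, the log2 change was 0.59 to 0.61 for Idi1, 0.33 to 0.39 for Cyp51, 0.21 to 0.27 for Sc5d, 0.23 to 0.27 for Insig1, 0.15 to 0.17 for Srebf2 and -0.19 to -0.16 for Elovl5. Without femur library 1, or without femur library 2, 5 genes were higher in place of 9, and Elovl5 did not pass (edgeR adjusted p = 0.055 and 0.080). The calls lost were those of Cyp51, Sc5d, Insig1 and Srebf2 in both cases (adjusted p from 0.051 to 0.20), and that of Idi1 without femur library 2 (0.068), where Pmvk passed (0.60 on the log2 scale, edgeR adjusted p = 0.035). Without tibia library 1 those of Idi1 (0.060) and Cyp51 (0.076) were lost, and without tibia library 2 those of Sc5d (0.14), Insig1 (0.16), Srebf2 (0.073) and Elovl5 (0.051). Without tibia library 3 those of Idi1 (0.074), Insig1 (0.16), Srebf2 (0.11) and Elovl5 (0.099) were lost, all by edgeR.

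**Figure D2:**
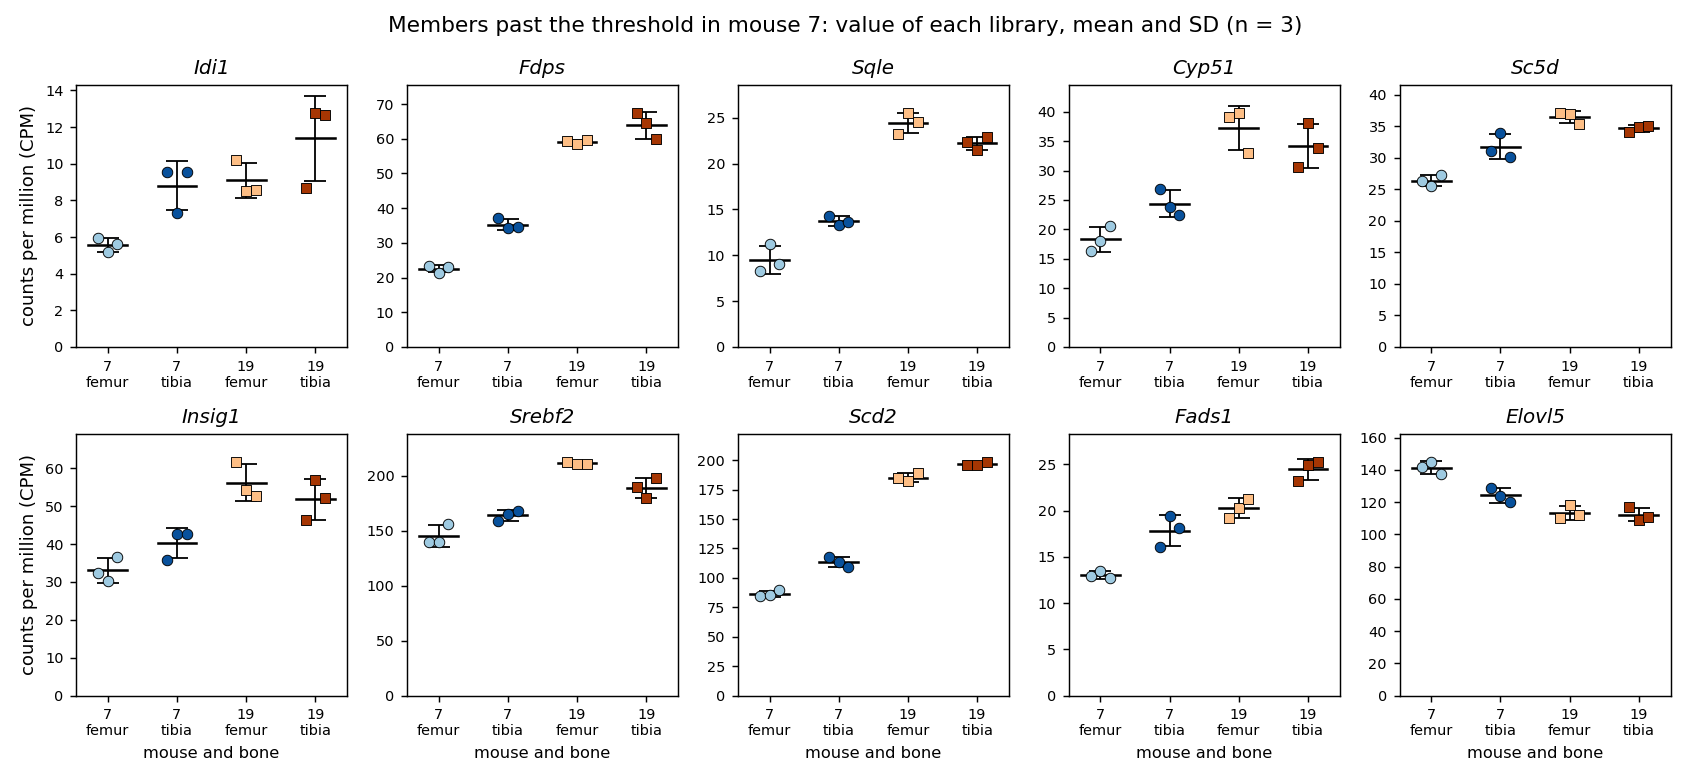
CPM of the 10 genes that passed the threshold in mouse 7 (y axis, from 0) in each library of mouse 7 and mouse 19, femur and tibia (x axis); points are libraries, and bars the mean with its SD (n = 3). Fdps in tibia of mouse 7 sits between 34.3 and 37.1 CPM, above its femur libraries and below all libraries of mouse 19.

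In mouse 19 none of the 33 genes passed (edgeR, 0 higher and 0 lower), where 2.96% of all genes were higher and 2.21% lower. At an unadjusted p under 0.05, 2 were higher and 1 lower, and DESeq2 called 0 higher and 1 lower (Srebf2). The median change of the 33 was -0.02, against 0.00092 for all genes, and 14 of 33 lay above 0, against 50.3%. The tibia libraries lay wholly above the femur libraries for 4 genes (Mvd, Fdps, Scd2 and Fads1), against 10.8% of all genes, and wholly below for 5 (Sqle, Sc5d, Srebf1, Srebf2 and Acly), against 10.3%. The summed sterol enzymes overlapped between the bones, at 494 to 521 CPM in femur and 509 to 525 CPM in tibia. For the genes that passed over both mice, the changes in mouse 19 were 0.32 ± 0.16 for Idi1, 0.11 ± 0.07 for Fdps, 0.09 ± 0.05 for Scd2 and 0.27 ± 0.10 for Fads1 (edgeR adjusted p from 0.13 to 0.41).

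The difference between the 2 within-mouse changes was tested itself. For 5 of the 33 genes the tibia change was lower in mouse 19 than in mouse 7 and for 0 it was higher, where 1.85% of all genes were lower and 2.89% higher. At an unadjusted p under 0.05, 9 were lower and 1 was higher, and DESeq2 called 7 lower, adding Insig1 and Acly, and 0 higher. The 5 were Fdps with a difference of -0.53 ± 0.10 (log2, edgeR adjusted p = 9.5e-04), Sqle with -0.66 ± 0.16 (0.0100), Cyp51 with -0.53 ± 0.14 (0.025), Srebf2 with -0.34 ± 0.07 (0.0026) and Scd2 with -0.30 ± 0.07 (0.0046). All 18 sterol enzymes lay below 0 in this difference. The median of the 33 was -0.19, against 0.0068 for all genes. Insig1 came near the threshold with -0.41 ± 0.12 (edgeR adjusted p = 0.054), and passed with no filter (0.0079), by DESeq2 (0.0497), on halved counts (0.043) and with any of 4 libraries left out (0.015 to 0.046). The call of Cyp51 was lost on leaving out femur 1, femur 2 or tibia 1 of either mouse (edgeR adjusted p from 0.058 to 0.100), while those of the other 4 genes passed in all 12 cases. With 1 animal on each side, the difference is one between 2 animals.

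The animals also differed in bone that had received no MSCs. In untreated femur 23 of the 33 genes were higher in mouse 19 than in mouse 7 and 2 were lower (edgeR, adjusted p under 0.05), against 14.1% higher and 14.3% lower among all genes. The median was 0.54, against 0.0017, and all 18 sterol enzymes lay above 0. In 24 genes the 3 femur libraries of mouse 19 lay wholly above those of mouse 7 and in 3 wholly below, against 20.3% and 20.7% of all genes. The femur libraries of mouse 7 enter this comparison, the tibia change of mouse 7 and the difference between the mice, so these do not stand independently. The 18 sterol enzymes summed to 494 to 521 CPM in the femur of mouse 19, above the 402 to 412 CPM in the tibia of mouse 7.

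Early in the pathway, Hmgcs1, the cytosolic synthase of HMG-CoA, stood at 43.4, 44.6 and 41.6 CPM in the femur of mouse 7 and 67.5, 63.2 and 59.1 CPM in that of mouse 19, a log2 difference of 0.55 ± 0.07 (edgeR adjusted p = 6.8e-07). Its tibia values were 53.4, 46.5 and 44.2 CPM in mouse 7 and 69.03, 62.2 and 68.2 CPM in mouse 19, which overlapped with the femur values in each mouse. Mvk stood at 5.77, 5.26 and 6.51 CPM in the femur of mouse 7 and 8.44, 11.002 and 11.1 CPM in that of mouse 19 and at 7.91, 7.58 and 7.01 CPM in the tibia of mouse 7 and 10.2, 13.3 and 15.9 CPM in that of mouse 19, with a femur difference of 0.81 ± 0.17 (adjusted p = 6.1e-04). Both enzymes were thus higher in the femur of mouse 19, with no overlap between the animals. Pmvk, the next kinase, stood at 7.39, 10.9 and 7.99 CPM in the femur of mouse 7 and 12.3, 13.7 and 10.5 CPM in that of mouse 19, which overlapped, and at 10.05, 12.97 and 11.8 CPM in the tibia of mouse 7 and 17.6, 13.98 and 13.1 CPM in that of mouse 19. Its femur difference of 0.47 ± 0.16 (edgeR adjusted p = 0.027) did not pass when any of 4 femur libraries was left out, which were 1 and 3 in mouse 7 and 1 and 2 in mouse 19 (0.058 to 0.15).

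The step with the widest gap between the femurs among the isoprenoid enzymes was Fdps, with 1.39 ± 0.07 (log2, 2.62-fold, edgeR adjusted p = 4.4e-15). Idi1 differed by 0.70 ± 0.18 (adjusted p = 0.0033), Sqle by 1.36 ± 0.11 (1.4e-10), Cyp51 by 1.02 ± 0.10 (5.5e-09) and Sc5d by 0.47 ± 0.08 (2.4e-05). The enzymes higher in the tibia of mouse 7 were also higher in the femur of mouse 19 than in that of mouse 7. Fdft1, the squalene synthase, stood at 21.9, 19.6 and 24.6 CPM in the femur and 25.2, 22.9 and 25.7 CPM in the tibia of mouse 7, and at 32.5, 39.8 and 35.3 CPM in femur and 39.4, 35.4 and 33.6 CPM in tibia of mouse 19. It differed between femurs by 0.71 ± 0.10 (edgeR adjusted p = 1.0e-06), with bones overlapping in each mouse. Its RefSeq span overlaps that of Ctsb, a lysosomal protease gene. The strand setting is not known, so part of the reads counted for Fdft1 could belong to Ctsb.

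Lss, the lanosterol synthase, was low, at 4.002, 2.74 and 2.22 CPM in femur and 3.88, 4.30 and 5.62 CPM in tibia of mouse 7 and 6.48, 5.90 and 6.05 CPM in femur and 5.73, 9.64 and 6.14 CPM in tibia of mouse 19. Its femur difference was 1.04 ± 0.24 (log2, edgeR adjusted p = 0.0015). Hsd17b7, a ketoreductase of the sterol demethylation steps, stood at 3.23, 2.10 and 3.03 CPM in femur and 4.04, 2.77 and 3.80 CPM in tibia of mouse 7 and 9.05, 6.94 and 7.63 CPM in femur and 6.88, 7.95 and 7.43 CPM in tibia of mouse 19, and differed between femurs by 1.49 ± 0.21 (2.81-fold, adjusted p = 2.4e-06). For both genes the 2 animals were apart in either bone, and the bones of 1 animal overlapped.

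Msmo1, the sterol methyl oxidase, stood at 26.2, 23.8 and 21.1 CPM in femur and 27.9, 23.2 and 28.03 CPM in tibia of mouse 7, and at 34.3, 37.9 and 39.9 CPM in femur and 38.8, 37.4 and 35.6 CPM in tibia of mouse 19. Nsdhl, its partner dehydrogenase, stood at 14.3, 13.9 and 13.5 CPM in femur and 15.5, 18.0004 and 16.7 CPM in tibia of mouse 7 and 19.4, 21.7 and 21.6 CPM in femur and 21.6, 22.5 and 20.04 CPM in tibia of mouse 19. Dhcr7, the final reductase of one branch, stood at 13.2, 12.6 and 11.8 CPM in femur and 14.8, 13.2 and 10.4 CPM in tibia of mouse 7 and at 19.5, 16.7 and 17.5 CPM in femur and 17.3, 16.7 and 16.7 CPM in tibia of mouse 19. The femur differences were 0.66 ± 0.09, 0.59 ± 0.10 and 0.51 ± 0.12 on the log2 scale (edgeR adjusted p = 1.8e-06, 6.0e-05 and 0.0022). Each was higher in the femur of mouse 19 with no overlap, and of the 3 only Nsdhl had its bones apart in mouse 7. The sterol enzymes that did not pass in the femur comparison were Acat2 (5.75 to 10.9 CPM over the 12 libraries), Mvd (42.3 to 54.7), Tm7sf2 (7.37 to 11.01) and Ebp (56.0 to 72.5).

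Among the regulators, Srebf2 (chr15:82147269-82205379), the main driver of sterol genes, stood at 139, 139.8 and 156 CPM in femur and 158, 165 and 168 CPM in tibia of mouse 7. In mouse 19 it stood at 213, 210.5 and 211 CPM in femur and 189.7, 179 and 198 CPM in tibia. The tibia values lay above the femur values in mouse 7 and below them in mouse 19. The changes were 0.18 ± 0.05 in mouse 7 (log2, edgeR adjusted p = 0.021) and -0.16 ± 0.05 in mouse 19 (edgeR adjusted p = 0.0505). The latter passed under 9 alternatives, among them DESeq2 (adjusted p = 0.029), and over both mice the change was 0.01 ± 0.05. The femurs differed by 0.54 ± 0.05 (edgeR adjusted p = 6.9e-10).

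Insig1 (chr5:28071412-28078662), which holds SCAP in the endoplasmic reticulum and is itself an SREBP target, stood at 32.3, 30.2 and 36.7 CPM in femur and 35.8, 42.6 and 42.6 CPM in tibia of mouse 7, which overlapped. In mouse 19 it stood at 61.7, 54.2 and 52.8 CPM in femur and 46.3, 56.9 and 52.1 CPM in tibia. Its changes were 0.29 ± 0.09 in mouse 7 (log2, edgeR adjusted p = 0.037), -0.12 ± 0.08 in mouse 19 (0.53) and 0.76 ± 0.09 between the femurs (6.7e-08). Insig2, with the same role, stood at 15.9, 16.6 and 17.2 CPM in femur and 19.5, 14.5 and 15.8 CPM in tibia of mouse 7 and 13.9, 17.4 and 15.8 CPM in femur and 16.9, 18.2 and 14.7 CPM in tibia of mouse 19, overlapping throughout. Of this pair Insig1 passed in mouse 7 and between the femurs and Insig2 in neither, though the difference between the genes was not tested.

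Srebf1, the driver of fatty acid genes, stood at 112, 102 and 111 CPM in femur and 108, 114 and 108 CPM in tibia of mouse 7 and 128, 122 and 120.0 CPM in femur and 117, 117 and 111 CPM in tibia of mouse 19. It did not pass in tibia of either mouse (edgeR adjusted p = 0.82 and 0.36). Its femur difference of 0.19 ± 0.05 passed (edgeR adjusted p = 0.0071), though not without femur library 2 of mouse 7 (0.062). Scap stood at 50.02, 44.5 and 46.4 CPM in femur and 48.98, 44.3 and 46.1 CPM in tibia of mouse 7 and 52.7, 48.4 and 44.8 CPM in femur and 46.1, 43.3 and 46.3 CPM in tibia of mouse 19, overlapping in each comparison. Stard4, a carrier of cholesterol between membranes, stood at 16.2, 16.98 and 15.4 CPM in femur and 15.8, 16.6 and 14.7 CPM in tibia of mouse 7 and 24.2, 22.96 and 25.6 CPM in femur and 25.5, 23.2 and 21.8 CPM in tibia of mouse 19. Stard4 was apart between the animals (0.58 ± 0.10 in femur, edgeR adjusted p = 4.3e-05) and overlapped between the bones of each.

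The fatty acid genes did not move as a block between the femurs. There 5 of 9 were higher in mouse 19 and 2 lower, against 14.1% and 14.3% of all genes. Scd2 differed by 1.10 ± 0.05 (log2, 2.14-fold, edgeR adjusted p = 8.0e-17) and Fads1 by 0.64 ± 0.11 (2.3e-05). Fads2 differed by 2.32 ± 0.43 (9.7e-05), on the few counts given above. Scd1 was lower, at 2.98, 1.67 and 1.49 CPM in the femur of mouse 19 against 5.77, 3.86 and 5.77 CPM in that of mouse 7, with 1.35, 2.17 and 1.78 CPM against 3.17, 3.94 and 3.72 CPM in the tibias. The paralogs Scd1 and Scd2 thus differed in opposite directions, by -1.35 ± 0.28 for Scd1 (edgeR adjusted p = 4.5e-04). How reads shared by such copies were counted is not known, and their part was not tested. Elovl5 was also lower in mouse 19, with a difference of -0.32 ± 0.05 (1.8e-05).

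Acly stood at 284, 300.1 and 304 CPM in femur and 314, 321 and 321 CPM in tibia of mouse 7 and 350.2, 344 and 341 CPM in femur and 323, 335 and 336 CPM in tibia of mouse 19. Its tibia values lay above the femur values in mouse 7 and below them in mouse 19, by 0.11 ± 0.04 and -0.06 ± 0.04, neither of which passed (edgeR adjusted p = 0.075 and 0.47). Fasn, the fatty acid synthase, stood at 56.5, 51.01 and 56.6 CPM in femur and 57.5, 58.8 and 56.9 CPM in tibia of mouse 7 and 75.1, 70.2 and 73.8 CPM in femur and 73.005, 58.4 and 68.3 CPM in tibia of mouse 19. The femur differences were 0.22 ± 0.04 for Acly and 0.42 ± 0.07 for Fasn (edgeR adjusted p = 4.0e-05 and 2.4e-05). Acaca, the acetyl-CoA carboxylase, ran from 41.4 to 53.8 CPM and the elongase Elovl6 from 20.4 to 32.4 CPM over the 12 libraries, and neither passed in any comparison.

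**Figure D3:**
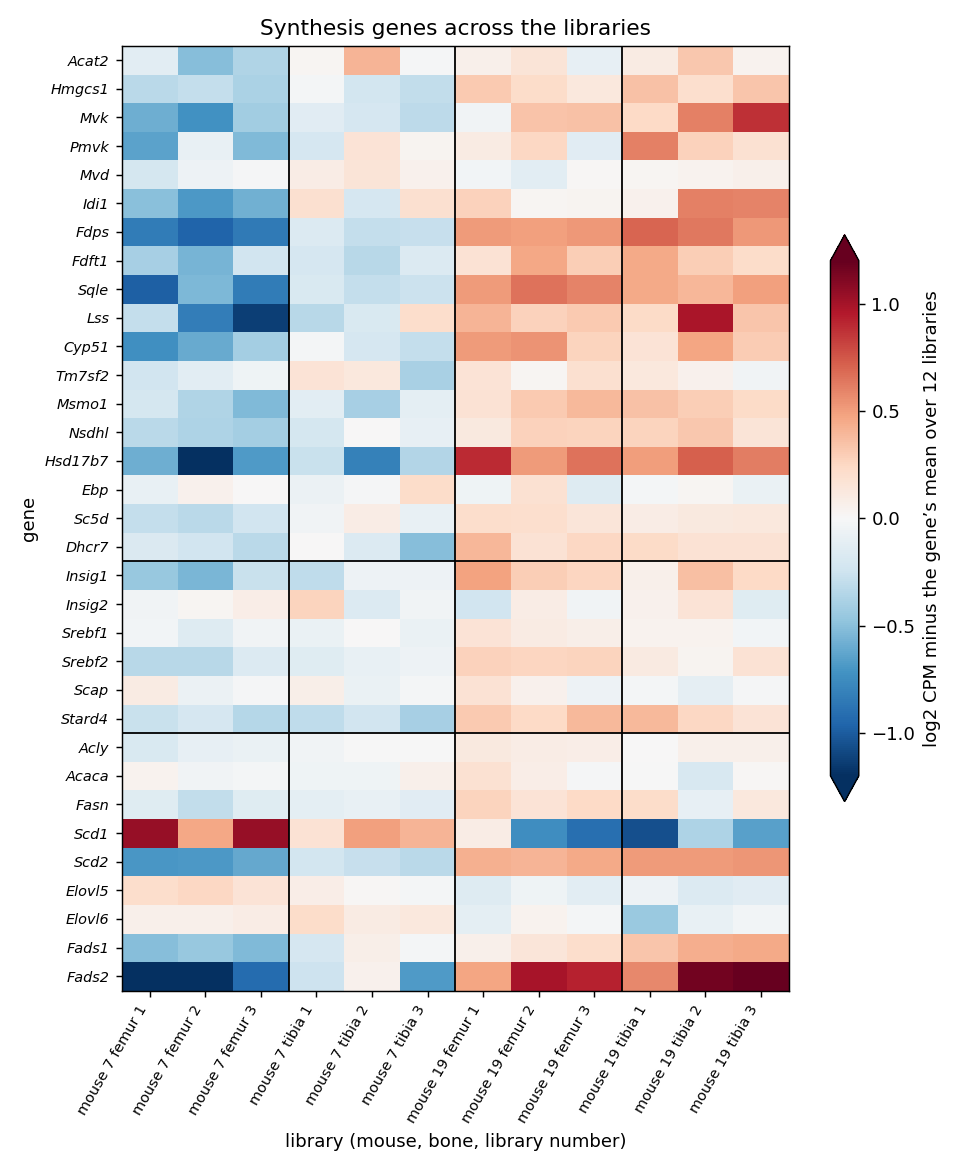
Heat map of the 33 genes (rows) in the 12 libraries (columns), coloured by log2 CPM minus the gene's mean over the libraries. Most sterol enzymes are lowest in the femur libraries of mouse 7 and higher in mouse 19, while Scd1 and Elovl5 run the other way.

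Genes of neighbouring pathways were counted over both mice in the same way, where edgeR called 3.51% of all genes higher and 3.69% lower. Of 8 genes that process SREBP or degrade sterol-sensed proteins, 0 passed (edgeR; 1 at an unadjusted p under 0.05), though Sec24d, a coat protein of the vesicles that carry SCAP, was higher in the tibia of mouse 7 by 0.34 ± 0.09 (adjusted p = 0.017). Of 12 genes on the isoprenoid branches below Fdps, 0 passed by edgeR, and 0 did at an unadjusted p under 0.05. Of 7 genes of cholesterol esterification and lysosomal release, 0 passed (edgeR; 1 higher and 3 lower at an unadjusted p under 0.05). In fatty acid oxidation 1 of 13 tested genes was higher and 0 lower (4 higher and 1 lower unadjusted): Slc25a20, the carnitine carrier, by 0.25 ± 0.08 (edgeR adjusted p = 0.049). That call was lost with 8 of the 12 libraries left out in turn (0.053 to 0.12).

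A list of 9 genes held the liver X receptors (LXR) Nr1h2 and Nr1h3 and genes that respond to sterol excess through them. Over both mice 3 of the 9 were higher and 3 lower (edgeR), against 3.51% higher and 3.69% lower among all genes. On counts summed per animal 0 of the 9 passed edgeR's test (3 higher and 2 lower at an unadjusted p under 0.05). Abca1, the cholesterol efflux pump, stood at 24.9, 26.03 and 25.3 CPM in femur and 31.4, 24.3 and 27.2 CPM in tibia of mouse 7, and at 9.88, 8.37 and 9.20 CPM in femur and 25.1, 20.96 and 28.6 CPM in tibia of mouse 19. The low values were those of the femur of mouse 19 alone. Its change was 0.68 ± 0.16 over both mice (edgeR adjusted p = 0.0080), 0.12 ± 0.11 in mouse 7 and 1.45 ± 0.12 in mouse 19 (1.1e-09), a difference between mice of 1.33 ± 0.16 (3.6e-06). Abcg1, another efflux pump, stood at 114, 117 and 115 CPM in femur and 94.0, 101 and 86.2 CPM in tibia of mouse 7. In mouse 19 it stood at 78.3, 83.6 and 79.2 CPM in femur and 88.5, 82.0 and 77.9 CPM in tibia. Its tibia values lay below the femur values in mouse 7, and the bones overlapped in mouse 19. Lpcat3, which puts polyunsaturated chains into phospholipids, changed by 0.23 ± 0.05 (adjusted p = 0.0049) and the small GTPase Arl4c by 0.20 ± 0.05 (0.022). Mylip, the ubiquitin ligase of lipoprotein receptors, was lower, with a change of -0.32 ± 0.08 (0.014). The call of Arl4c was lost on dropping any of 4 libraries, namely femur 2 of mouse 7 and femur 2, femur 3 and tibia 2 of mouse 19 (edgeR adjusted p from 0.051 to 0.064).

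Among 16 tested genes of fatty acid activation and further synthesis, 2 were higher and 3 lower over both mice at an unadjusted p under 0.05. By edgeR's adjusted p 1 was higher and 0 were lower, against 3.51% and 3.69% of all genes. It was Dgat2, which makes the triglyceride of lipid droplets, at 32.2, 32.1 and 28.6 CPM in femur and 42.6, 37.02 and 35.4 CPM in tibia of mouse 7 and 42.7, 43.8 and 49.1 CPM in femur and 56.8, 60.001 and 58.02 CPM in tibia of mouse 19. Tibia lay above femur with no overlap in both mice, with a change of 0.34 ± 0.06 (edgeR adjusted p = 4.3e-04), 0.31 ± 0.08 in mouse 7 (0.012) and 0.36 ± 0.08 in mouse 19 (0.0026). On counts summed per animal its edgeR adjusted p was 0.069.

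Markers of other cell states also differed between the libraries. Among all genes, edgeR called 4.37% higher and 5.36% lower in the tibia of mouse 7, and 2.96% and 2.21% in mouse 19. Over both mice the shares were 3.51% and 3.69%, in the difference between mice 2.89% and 1.85%, and between femurs 14.1% and 14.3%. Of 16 proliferation genes, 15 were higher in the tibia of mouse 7 and 0 lower, 0 were higher and 3 lower in mouse 19, and all 16 were higher in the femur of mouse 19 than in that of mouse 7. Over both mice 2 were higher and 0 lower, Rrm2 by 0.18 ± 0.05 (edgeR adjusted p = 0.028) and Gins2 by 0.39 ± 0.10 (0.022), and neither call was firm. That of Rrm2 was lost on dropping any 1 of the 6 libraries of mouse 7 (edgeR adjusted p from 0.064 to 0.084) and with the replicate block (0.092), and that of Gins2 on dropping femur 1 (0.059) or tibia 2 (0.056) of mouse 7. In the difference between mice 14 of 16 were lower. Their summed level was 3928 to 4113 CPM in femur and 4522 to 4645 CPM in tibia of mouse 7, and 4808 to 4933 and 4387 to 4613 CPM in mouse 19.

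The 5 granulocyte precursor markers (Elane, Mpo, Prtn3, Ctsg and Ms4a3) were higher in the tibia of both mice together and of mouse 7 (5 of 5 each). In mouse 19, 3 of 5 were. Among all genes, 3.51%, 4.37% and 2.96% were higher in the same comparisons, in that order. On counts summed per animal 3 of the 5 markers were higher by edgeR's test, against 0.407% of all genes. The 5 markers summed to 650 to 677 CPM in femur and 963 to 1206 CPM in tibia of mouse 7, and 1096 to 1386 and 1364 to 1697 CPM in mouse 19. All 5 were higher in the femur of mouse 19 than in that of mouse 7, as were all 7 neutrophil markers and all 3 eosinophil markers. Among all genes 14.1% were higher there. The eosinophil markers (Prg2, Epx and Prg3) summed to 69.1 to 84.2 and 84.6 to 135 CPM in femur and tibia of mouse 7 and to 260.1 to 333 and 186 to 262 CPM in mouse 19. Of the 3, 2 were higher and 0 lower in the tibia of mouse 7, against 4.37% and 5.36% of all genes. In mouse 19, 0 were higher and 1 lower, against 2.96% and 2.21%. In the difference between mice 0 were higher and 2 lower, against 2.89% and 1.85%. The 8 macrophage and monocyte markers summed to 6659 to 6773 and 6333 to 6488 CPM in mouse 7, and to 5787 to 5802 and 6174 to 6283 CPM in mouse 19. The summed sterol enzymes, proliferation genes, precursor markers and eosinophil markers were thus all higher in the tibia of mouse 7 and in the femur of mouse 19 than in the femur of mouse 7. For the eosinophil markers the gap between the bones of mouse 7 was narrow. From femur to tibia in mouse 19 these sums parted. The sterol enzymes overlapped, and the proliferation genes were lower with no overlap. The precursor markers overlapped with a higher mean, and the eosinophil markers overlapped with a lower mean. The part of these cells in the results was not tested.

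Markers of adipocytes and red cells were low. The adipocyte markers summed to 0.16 to 0.65 CPM, with Plin1 at 0 in all 12 libraries and Cidec at 0 in 11. The haemoglobin genes listed as Hba-a1, Hba-a2, Hbb-b1 and Hbb-b2 were at 0 in all 12, while that listed as Beta-s had up to 592 counts. Those zeros were therefore not taken as a measure of red cells. The 8 erythroid markers, in effect the 4 that were tested, summed to 27.4 to 38.8 and 19.5 to 21.9 CPM in femur and tibia of mouse 7. In mouse 19 they summed to 43.5 to 57.2 and 30.4 to 37.1 CPM. The B cell markers summed to 31.8 to 63.2 CPM, the dendritic cell markers to 26.4 to 46.4 CPM and the stromal markers, among them Cxcl12, to 2.5 to 9.8 CPM. Among all genes edgeR called 3.51% higher and 3.69% lower over both mice, 4.37% and 5.36% in mouse 7, and 2.96% and 2.21% in mouse 19. Over both mice 3 of 7 neutrophil markers were higher in the tibia and 1 lower, and in mouse 19 alone 5 were higher. Of 8 macrophage and monocyte markers 1 was higher over both mice (Mertk), and in mouse 19 alone 5 were higher and 1 lower. In mouse 7 alone 1 of the 8 was higher and 2 were lower. Between the femurs 1 was higher in mouse 19 and 5 were lower, against 14.1% and 14.3% of all genes. Of 4 tested erythroid markers 1 was lower over both mice, the haemoglobin transcript listed as Beta-s (log2 change -0.67, edgeR adjusted p = 8.5e-05, and 0.0029 on counts summed per animal). Of 2 tested megakaryocyte markers 1 was higher (Pf4). Over both mice 2 of 5 dendritic cell markers and 1 of 5 tested B cell markers were lower in the tibia and 0 of either were higher, and 0 of 3 tested stromal markers passed (edgeR; 0 also at an unadjusted p under 0.05), with 1 of the 3 lower in mouse 7.

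**Figure D4:**
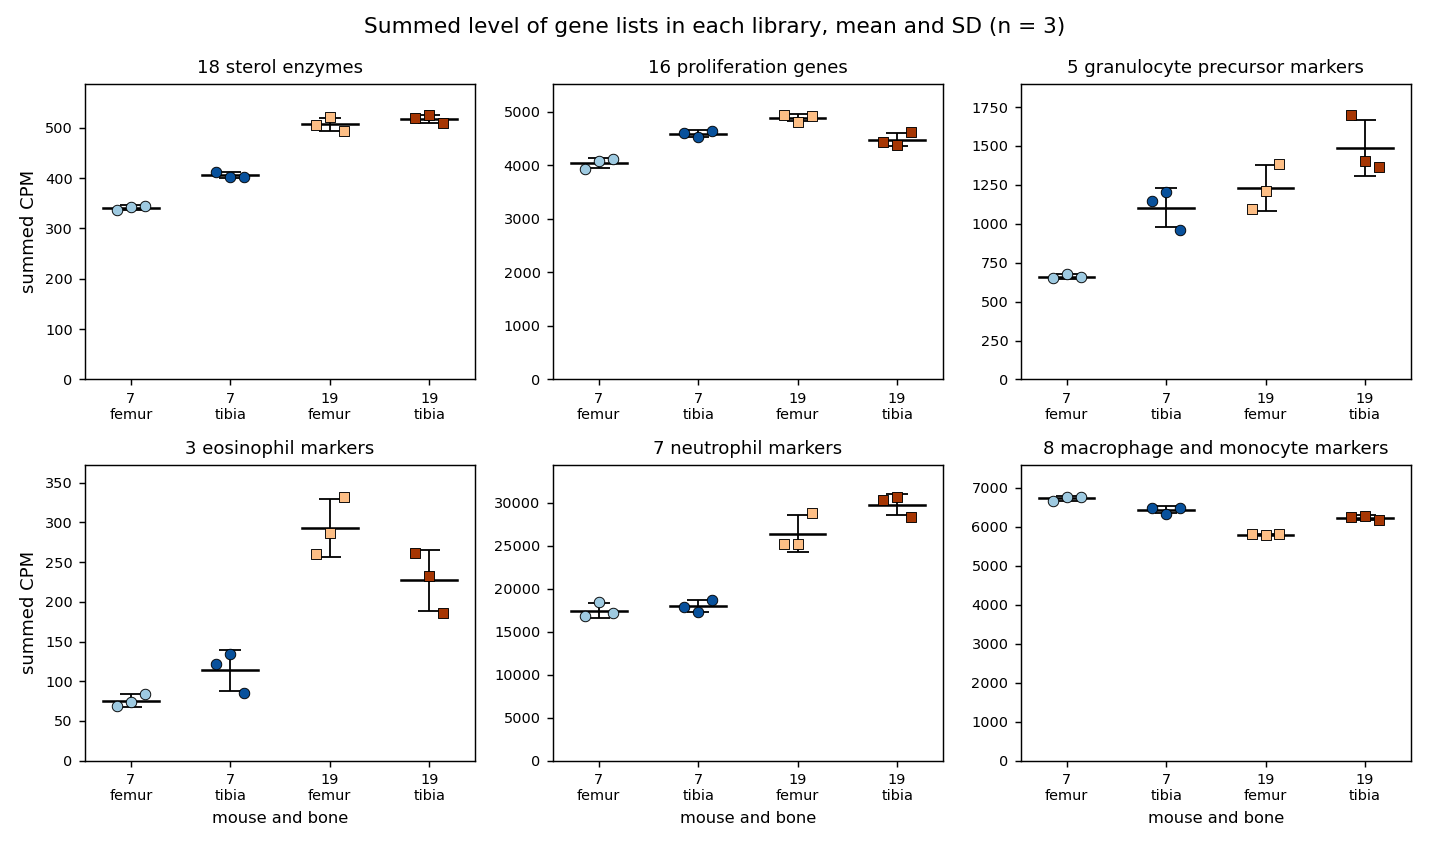
Summed CPM of gene lists (y axes, from 0) in each library of mouse 7 and mouse 19, femur and tibia (x axes); points are libraries, and bars the mean with its SD (n = 3). The sterol enzymes and the proliferation genes both sit lowest in the femur of mouse 7.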

How the data were processed

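The 12 libraries are bulk RNA-seq of macrophages sorted from mouse bone marrow, 3 per bone from each of 2 mice, with RNA from a column micro kit and libraries from a VAHTS mRNA-seq kit, per the labels. The authors deposited raw read counts per gene, as whole numbers with no scaling visible. Per the submitters' processing notes, the build was mm10 and the tools were bcl2fastq, HISAT2, Subread, featureCounts and DESeq2. The labels name no settings, strand mode or annotation version for them. Of counts from 1 to 10, 69.8% were even, as when both ends of a fragment are counted, so a count of 0 allows up to 3 fragments (6 counts, or 0.404 to 0.617 CPM) at 95% confidence.

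The tests ran in edgeR 4.0.16 under R 4.3.3 (TMM, filterByExpr with a minimum count of 10, quasi-likelihood test, two-sided). This left 11806 of 23420 genes, and p-values were adjusted over all 11806 by Benjamini-Hochberg with a threshold of 0.05. The comparison over both mice had the mouse as a term. Contrasts within each mouse, of the difference between them and between femurs came from 1 mean per mouse and bone. The SE is the absolute log2 change over the square root of F. CPM are counts over TMM-scaled library sizes. Libraries of 1 bone and mouse were kept apart, since their halved counts gave a chi-square per gene of 1.39 to 3.26, above sampling noise. The scripts were tested on simulated data. Alternatives were DESeq2 1.42.0 (its size factors, and its Wald test), no filter, halved counts, counts summed per animal, other mouse terms and each library left out.

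Gene coordinates and promoters are RefSeq on GRCm38.p6, the assembly that mm10 names, and exon lengths are unions of GENCODE vM21 exons. The RefSeq spans of Fdft1, Tm7sf2, Srebf1 and Acaca overlap another protein-coding gene, so part of their reads could belong to it. The 33 genes and all other lists were chosen with earlier results of these data known. Per-library values are given for genes that passed in any comparison and for Srebf1, Srebf2, Scap, Insig1 and Insig2, and in other lists at most 4 genes that passed over both mice are named, lowest p first. Sec24d, Abcg1, Mertk, Beta-s and Pf4 were named after their values were seen.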

Additional observations from a re-analysis of the deposited data

Results flagged for a closer look

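The change from femur to tibia differed between the 2 mice for 5 of the 33 genes, by a test of the difference itself (edgeR, adjusted p under 0.05). As mouse 19 minus mouse 7 on the log2 scale, the difference was -0.53 for Fdps, -0.66 for Sqle, -0.53 for Cyp51, -0.34 for Srebf2 and -0.30 for Scd2. Groups of 3 libraries were too small to look for single outlying libraries. Fdps and Scd2 were above 0 in both mice, and Sqle, Cyp51 and Srebf2 lay above 0 in mouse 7 and below 0 in mouse 19.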

How the results depend on the processing

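Of 2838 log2 changes of the 33 genes recomputed under an alternative, 2765 stayed on the same side of the threshold. A further 41 lost a call and 32 gained one, and 0 called values changed sign. Among the 2765, 84 of the 2075 values that passed in neither setting changed sign. The same alternatives for 8 of the genes named from other lists were added after seeing the data. All 8 lost their call on counts summed per animal and with the mouse term left out. The count of genes higher over both mice fell from 4 to 0 on counts summed per animal, and to 0 with no replicate block (the mouse term left out). It rose to 6 with no filter and to 5 with DESeq2's test. In mouse 7 the count of genes higher rose from 9 to 10 with no filter and to 12 on halved counts. The count of genes lower in mouse 19 went from 0 to 1 (Srebf2) with DESeq2's size factors, with no filter, with DESeq2's test, with the replicate block and on halved counts.

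Leaving out each library in turn gave 3 to 5 genes higher and 0 lower over both mice, 5 to 10 higher and 0 to 1 lower in mouse 7, and 0 higher and 0 to 1 lower in mouse 19. It gave 4 to 6 lower and 0 higher in the difference between mice, and 22 to 23 higher and 2 lower between femurs.

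Replicate numbers did not pair the libraries: same-numbered femur and tibia libraries had correlations of their deviations from -0.149 to 0.067, and not every library correlated best with its own number. With the replicate block (mouse by library number) the counts were 4 higher and 0 lower over both mice, 9 and 1 in mouse 7, 0 and 1 in mouse 19, and 5 lower in the difference.

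Over all genes, 414 higher and 436 lower over both mice became 239 and 256 with the replicate block, 50 and 24 with no replicate block, and 48 and 17 on counts summed per animal. Libraries left out moved the 436 lower to 279 (mouse 7, tibia 3) and 283 (mouse 19, tibia 2). In mouse 7 they moved the 516 higher to as few as 314 and the 633 lower to 381, and in mouse 19 the 349 higher to 226 and the 261 lower to 116. Other libraries left out raised the counts. Without tibia 3 of mouse 19 the 414 higher and 436 lower over both mice became 498 and 490, and the 261 lower in mouse 19 became 369. Without tibia 2 of mouse 19 the 516 higher in mouse 7 became 602. The cause of these shifts was not tested. Few counts stood behind Fads2, with 20 over the 3 femur libraries of mouse 7, and behind Scd1, with 69 over those of mouse 19.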
